A study of Homo sapiens with 8 samples.

Results

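The genes described here are MACC1, its reported target MET, and 5 genes that act beside MET in signalling by hepatocyte growth factor (HGF): GAB1, ST14, SPINT1, SPINT2 and MST1R. These 7 genes of the 64253 listed in the count tables were chosen because MACC1 was much higher in HCT-8/FU than in HCT-8, so their values in that comparison are a description and were not tested. RNA-seq was run on 8 libraries in 4 groups of 2 replicates. The human colon cancer line HCT-8 is sensitive to 5-fluorouracil (5-FU) and the paired line HCT-8/FU is resistant to it, and both were grown in unconditioned medium. In the other groups, HCT-8 cells were grown in conditioned medium (CM), which is medium taken from cultures of HCT-8 (HCT-8 CM, labelled CM of HCT-8) or of HCT-8/FU (HCT-8/FU CM, labelled CM of HCT-8/FU) after 48 h. The paper gives serum-containing medium with antibiotics for HCT-8 and names no separate medium for HCT-8/FU. No label gives 5-FU in the medium of any library, and HCT-8/FU is a single resistant line. The labels do not say whether replicates came from separate cultures, so p-values measure only the spread between these libraries.

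HGF is a secreted growth factor that is released as an inactive single chain. A serine protease on the surface of epithelial cells, such as matriptase (ST14), or in the fluid around them has to cut it before it can activate the receptor tyrosine kinase MET. SPINT1 (HAI-1) and SPINT2 (HAI-2) are membrane-bound Kunitz-type inhibitors of these proteases. Active MET recruits the docking protein GAB1, which passes the signal to the phosphatase SHP2 (PTPN11) and to PI3 kinase. MST1R (RON) is the closest relative of MET and binds the HGF-like ligand MST1, which is also made as an inactive chain. MACC1 was named for its association with metastasis in colon cancer, where it is known as an activator of MET transcription.

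Gene positions are on GRCh38 in the GENCODE 44 annotation. MACC1 (ENSG00000183742) lies on the minus strand at chr7:20134655-20217404 and MET (ENSG00000105976) on the plus strand of the same chromosome at chr7:116672196-116798377. GAB1 (ENSG00000109458) lies at chr4:143336876-143474565, ST14 (ENSG00000149418) at chr11:130159782-130210362, SPINT1 (ENSG00000166145) at chr15:40844018-40858207 and SPINT2 (ENSG00000167642) at chr19:38244035-38292615, all on the plus strand. MST1R (ENSG00000164078) lies on the minus strand at chr3:49887002-49903873. The values count reads over all exons of a gene, untranslated regions included. The exons of MACC1, GAB1 and MET were poor in G and C (37.0%, 38.4% and 43.6%), whereas those of SPINT2, MST1R, SPINT1 and ST14 were rich in them (56.4%, 59.8%, 61.0% and 61.2%).

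Because MACC1 is described as an activator of MET, the stretches just upstream of both genes are shown. RefSeq promoter entries on GRCh38.p14 were found for 4 of the 7 genes, and the 250 bases before the start are printed for MACC1 (minus strand, chr7:20217385-20217634) and MET (plus strand, chr7:116671946-116672195), 5′ to 3′. Capitals mark the GC box GGGCGG, the core that the transcription factor SP1 recognises, searched on both strands.
MACC1: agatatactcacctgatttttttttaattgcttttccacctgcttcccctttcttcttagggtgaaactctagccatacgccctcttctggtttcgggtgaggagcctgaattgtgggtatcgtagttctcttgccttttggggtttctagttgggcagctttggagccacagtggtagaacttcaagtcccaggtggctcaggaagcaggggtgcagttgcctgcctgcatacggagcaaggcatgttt
MET: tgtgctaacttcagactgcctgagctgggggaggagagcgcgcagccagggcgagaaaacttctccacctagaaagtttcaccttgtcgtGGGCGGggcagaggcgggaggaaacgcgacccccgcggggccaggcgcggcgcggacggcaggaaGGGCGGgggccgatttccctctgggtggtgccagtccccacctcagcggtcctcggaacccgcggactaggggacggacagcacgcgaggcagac
The MET stretch held 2 GC boxes, starting 160 and 95 bases before the start, and the MACC1 stretch held 0. Of 35116 RefSeq promoters cut to the same length, 42.6% held at least 1 GC box. The AP-1 element TGANTCA was in neither stretch, and 6.57% of all promoters held it on either strand. The letters describe these windows and say nothing of which factors bound them in these cells.

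Gene counts ranged from 5804124 to 34881349 per library. In 3 libraries (HCT-8 replicate 1, HCT-8/FU replicate 2 and HCT-8 CM replicate 1) 19.96% to 29.6% of records were not aligned, against 3.58% to 4.43% in the other 5. All 8 epithelial markers checked were present in every group (their summed level was 9317 to 11609 CPM, counts scaled to library size), whereas the markers of other cell types were low. Most of the epithelial sum came from KRT8 (4720 to 5869 CPM) and KRT18 (1911 to 2738 CPM), and KRT20 was low too, at 4.79 to 16.9 CPM. The 7 fibroblast markers summed to 15.9 to 16.2 CPM in HCT-8, 12.5 to 17.3 in HCT-8/FU, 20.5 to 22.4 in HCT-8 CM and 17.1 to 18.3 in HCT-8/FU CM, nearly all of it from COL1A1 (8.19 to 13.8 CPM) and PDGFRB (4.35 to 9.04 CPM), with COL1A2 at 0 counts throughout. The 5 leukocyte markers summed to 0.739 to 1.96 CPM, from CD14 and CD68, with PTPRC, CD3E and MS4A1 at 0 counts, and the 3 endothelial markers to 1.27 to 2.45 CPM. The part of these markers in the results was not tested. The libraries also differed in how gene levels followed GC content. The Spearman correlation of a gene's deviation from its mean with its GC content, across 19857 genes, was -0.49 and -0.45 in HCT-8/FU, -0.07 and -0.06 in HCT-8/FU CM, 0.05 and 0.21 in HCT-8, and 0.37 and 0.53 in HCT-8 CM. Log2 fold changes corrected for GC content and gene length are therefore given beside those as counted. That correction removes whatever follows GC content or length, of technical or of biological origin.

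MACC1 had the largest log2 fold change of the 7 genes in each comparison, and its level increased in the order HCT-8, HCT-8 CM, HCT-8/FU CM, HCT-8/FU. It was at 1.05 and 1.77 CPM (scaled to the TMM-normalized library size) in the replicates of HCT-8, at 2.42 and 3.09 in HCT-8 CM, at 6.54 and 6.81 in HCT-8/FU CM, and at 11.3 and 8.36 in HCT-8/FU. No replicates of different groups overlapped, so the 4 groups kept this order in every library. The low end rests on few reads, with 8 and 60 counts in HCT-8 and 21 and 82 in HCT-8 CM. The exact 95% Poisson intervals of the shallower replicates of these groups, 0.455 to 2.08 and 1.496 to 3.69 CPM, overlapped, and they cover counting error only.

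**Figure D1:**
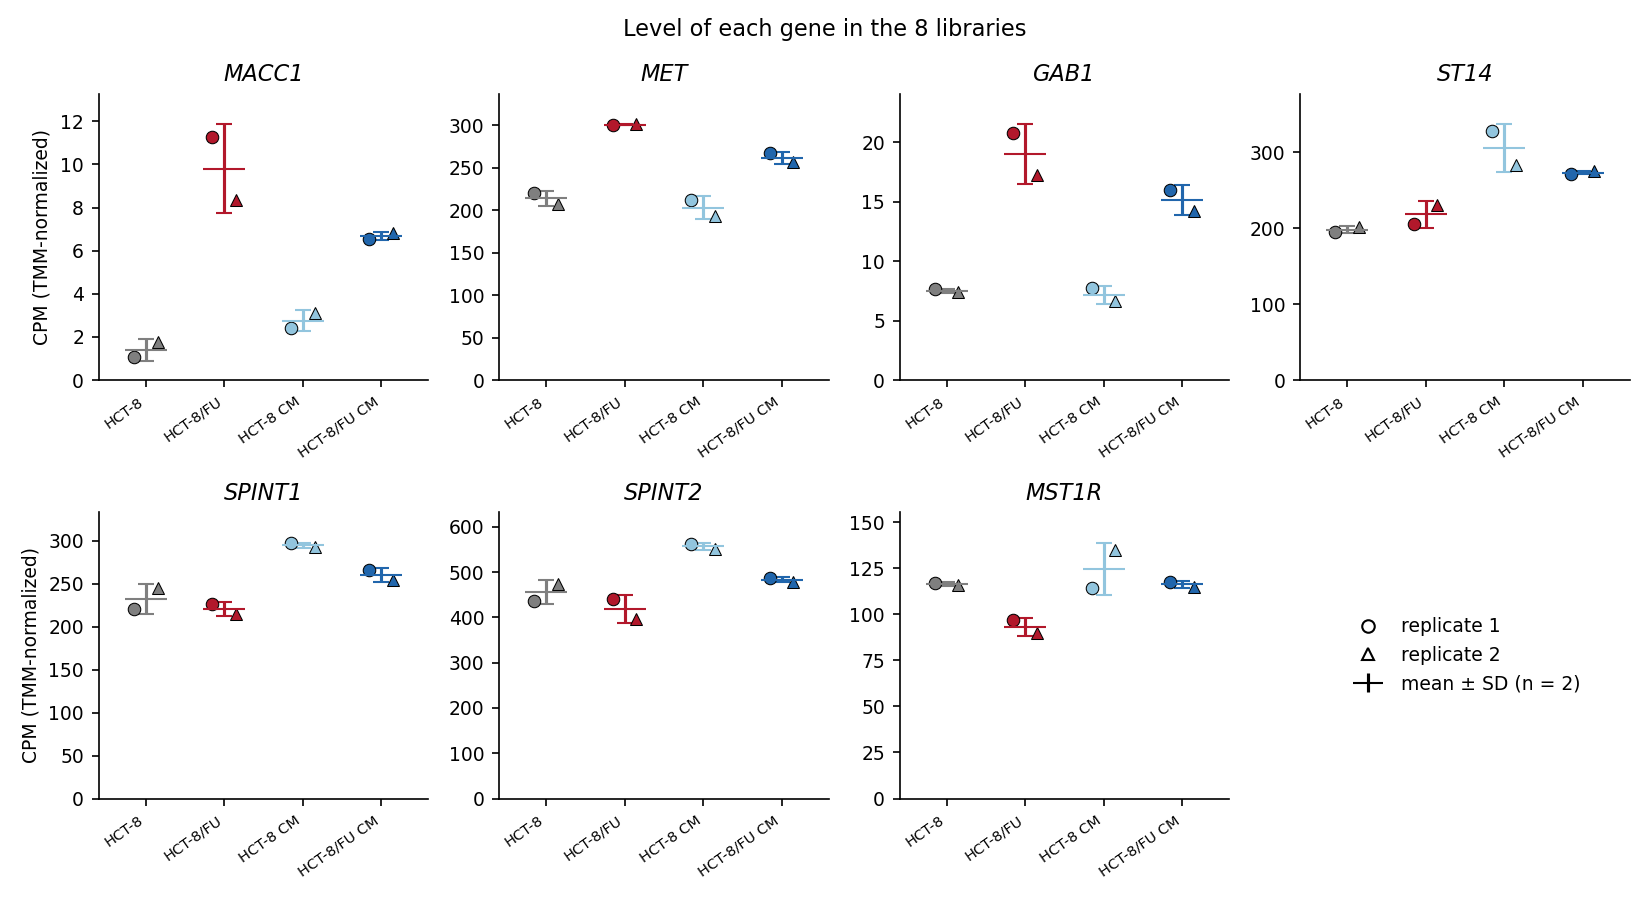
Level of each of the 7 genes (vertical axis, CPM on the TMM-normalized library size, from 0) in the 4 groups (horizontal axis), with circles for replicate 1, triangles for replicate 2 and bars for mean ± SD (n = 2). MACC1, MET and GAB1 were lowest in HCT-8 and HCT-8 CM, intermediate in HCT-8/FU CM and highest in HCT-8/FU, whereas SPINT1 and SPINT2 were highest in HCT-8 CM.

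In the comparison that chose the genes, MACC1 was at 9.81 ± 2.06 CPM in HCT-8/FU and 1.41 ± 0.51 in HCT-8 (SD, n = 2), a log2 fold change of 2.68 ± 0.28 (SE), which ranked 110 of the 20305 genes tested. With the correction for GC content and length this became 2.00 ± 0.27. Leaving out single libraries gave 2.40 to 3.23, the highest without replicate 2 of HCT-8, when only the replicate with 8 counts was left in that group.

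MACC1 was also higher in HCT-8 cells that received HCT-8/FU CM than in those that received HCT-8 CM. The stated reason for choosing the genes did not use the libraries in CM. However, the genes were chosen with earlier results of these data known, so the test is not fully independent of the choice. The level of MACC1 was 6.68 ± 0.19 CPM in HCT-8/FU CM and 2.75 ± 0.48 in HCT-8 CM (SD, n = 2), a log2 fold change of 1.23 ± 0.25 (SE, edgeR quasi-likelihood test, Benjamini-Hochberg adjusted p = 0.0027). The call was lost with the correction for GC content and length, where the log2 fold change was 0.56 ± 0.25 and the adjusted p of the edgeR test was 0.198. HCT-8 CM itself stood above unconditioned HCT-8 by a log2 fold change of 0.85 ± 0.30, which is given without a test because it uses the HCT-8 libraries that chose the gene. Whether the differences of MACC1 in resistant cells and in CM are unequal was not tested.

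MET, the receptor for HGF, was expressed at a high level in every library and differed far less between groups than MACC1. It was at 219.99 and 207.6 CPM in HCT-8, 212.2 and 193.2 in HCT-8 CM, 266.8 and 256.5 in HCT-8/FU CM, and 300.2 and 301.03 in HCT-8/FU. HCT-8 and HCT-8 CM overlapped, while HCT-8/FU CM lay above both and HCT-8/FU above all other groups. In HCT-8/FU against HCT-8 its log2 fold change was 0.49 ± 0.07 (SE), and 0.27 ± 0.09 with the correction. Between the groups in CM it rose by 0.37 ± 0.07 on the log2 scale (1.29-fold, edgeR quasi-likelihood test, adjusted p = 0.0019), which is below the study's fold threshold of 0.58. With the correction the difference was 0.18 ± 0.09 and the adjusted p of the same test was 0.24.

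GAB1, the docking protein that carries the MET signal inward, was low like MACC1 and followed the order of MET. Its levels were 7.64 and 7.36 CPM in HCT-8, 7.71 and 6.63 in HCT-8 CM, 16.005 and 14.2 in HCT-8/FU CM, and 20.8 and 17.2 in HCT-8/FU. HCT-8 and HCT-8 CM overlapped, and the groups with resistant cells or their medium lay above them without overlap. The log2 fold change was 1.38 ± 0.17 in HCT-8/FU against HCT-8, or 0.76 ± 0.16 with the correction. GAB1 rose in HCT-8/FU CM against HCT-8 CM by 1.10 ± 0.17 (2.15-fold, edgeR quasi-likelihood test, adjusted p = 0.00021). With the correction this was 0.51 ± 0.16, under the fold threshold and with an adjusted p of 0.0594 in the edgeR test.

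ST14 encodes matriptase, a protease that activates both HGF and MST1 precursors on epithelial cells. It was at 194.6 and 201.1 CPM in HCT-8, at 206.2 and 231.3 in HCT-8/FU, 271.9 and 275 in HCT-8/FU CM, and 327.9 and 283.2 in HCT-8 CM. No groups overlapped, and both groups in CM lay above both groups in unconditioned medium. Between the groups in CM the log2 fold change was -0.16 ± 0.08 (edgeR quasi-likelihood test, adjusted p = 0.207), and -0.03 ± 0.12 with the correction. Without replicate 2 of HCT-8 CM it was -0.26 (edgeR test, adjusted p = 0.0194). As a description, HCT-8 CM stood above HCT-8 by 0.62 ± 0.08 (0.45 ± 0.12 with the correction) and HCT-8/FU above HCT-8 by 0.14 ± 0.08 (0.40 ± 0.12 with the correction).

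The protease inhibitors SPINT1 and SPINT2 followed a common order that differed from that of MET. SPINT1 was at 220.4 and 245.3 CPM in HCT-8, at 226.4 and 214.6 in HCT-8/FU, 265.7 and 254.2 in HCT-8/FU CM, and 297.1 and 292.7 in HCT-8 CM. SPINT2 was at 436.6 and 474.7 CPM in HCT-8, at 440.6 and 396.5 in HCT-8/FU, 487.1 and 478.8 in HCT-8/FU CM, and 562.5 and 550.7 in HCT-8 CM. For both genes HCT-8 and HCT-8/FU overlapped, and both groups in CM lay above them, with HCT-8 CM the highest. In HCT-8/FU CM against HCT-8 CM the log2 fold change was -0.18 ± 0.07 for SPINT1 and -0.20 ± 0.07 for SPINT2 (edgeR quasi-likelihood test, adjusted p = 0.0990 and 0.0607), and -0.03 ± 0.09 and -0.08 ± 0.08 with the correction. A term for the 3 libraries with many records not aligned brought both under the FDR threshold (-0.21 with adjusted p = 0.0215 and -0.24 with adjusted p = 0.00586 in the edgeR test), still far below the fold threshold. In HCT-8/FU against HCT-8 the values were -0.08 ± 0.07 and -0.12 ± 0.07, and they turned to 0.17 ± 0.09 and 0.08 ± 0.08 with the correction.

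MST1R, the receptor related to MET, was the only one of the 7 genes whose levels in HCT-8/FU lay wholly below those in HCT-8. It was at 117.2 and 115.6 CPM in HCT-8, 114.5 and 134.7 in HCT-8 CM, 117.4 and 115.0 in HCT-8/FU CM, and 96.8 and 89.8 in HCT-8/FU. The 3 groups other than HCT-8/FU overlapped with each other. Its log2 fold change in HCT-8/FU was -0.31 ± 0.09, or -0.07 ± 0.09 with the correction. In HCT-8/FU CM against HCT-8 CM it was -0.11 ± 0.08 (edgeR quasi-likelihood test, adjusted p = 0.419), and it turned to 0.02 ± 0.09 with the correction and to 0.03 without replicate 2 of HCT-8 CM.

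Per length of exon, the 7 genes fell into an abundant and a scarce set. In HCT-8, SPINT2 was at 89.6 ± 5.3, SPINT1 at 65.7 ± 5.0, ST14 at 48.1 ± 1.1, MET at 29.6 ± 1.2 and MST1R at 22.2 ± 0.2 RPKM (reads scaled to exonic length and library size, SD, n = 2), whereas GAB1 was at 0.750 ± 0.019 and MACC1 at 0.143 ± 0.051. The ratio of MET to MST1R in RPKM was 1.37 and 1.31 in HCT-8, 1.35 and 1.04 in HCT-8 CM, 1.65 and 1.62 in HCT-8/FU CM, and 2.26 and 2.44 in HCT-8/FU. As counted, the receptors were thus nearest to equal in HCT-8 and HCT-8 CM and furthest apart in HCT-8/FU. These ratios are not corrected for GC content, which was 43.6% in the exons of MET and 59.8% in those of MST1R. In HCT-8/FU against HCT-8 the log2 fold changes of MET and MST1R were 0.49 and -0.31 as counted. With the correction they lay nearer to each other, at 0.27 and -0.07. The ratio of ST14 to its inhibitor SPINT1 was lowest in HCT-8, at 0.760 and 0.706, and 0.784 to 0.950 in the other groups. The ratio of ST14 to SPINT2 was likewise 0.551 and 0.523 in HCT-8 and 0.578 to 0.721 in the other groups. The ratio of MET to MACC1 ran from 36.5 and 49.4 in HCT-8/FU to 286 and 160 in HCT-8, so that MACC1 varied more between groups, as a ratio, than MET.

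Taken as a group, 2 of the 7 genes (MACC1 and GAB1) were DE genes in HCT-8/FU CM against HCT-8 CM, that is, with an FDR up to 0.05 and a log2 fold change of 0.58 or more in size, and both were higher. All 7 had passed the filter on low counts. Of all 20305 genes tested, 9.25% were DE in this comparison (7.97% higher and 1.28% lower). At the FDR alone 3 of the 7 were higher, with MET added, against 11.2% of all genes. The median log2 fold change of the 7 genes was -0.11, against -0.06 over all genes. The groups did not overlap for 6 of the 7 genes, 3 higher and 3 lower, against 26.9% and 34.5% of all genes. After correction for GC content and length, 0 of the 7 were DE by edgeR (2 of them, MACC1 and GAB1, had an unadjusted p under 0.05), while 4.8% of 19857 genes were (2.65% higher and 2.16% lower). DESeq2 without the correction called the same number, 2, as edgeR. The genes with exons poor in G and C (MACC1, GAB1 and MET) were the 3 that were higher and those rich in them the 4 with values below 0, and the correction brought all 7 nearer to 0.

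**Figure D2:**
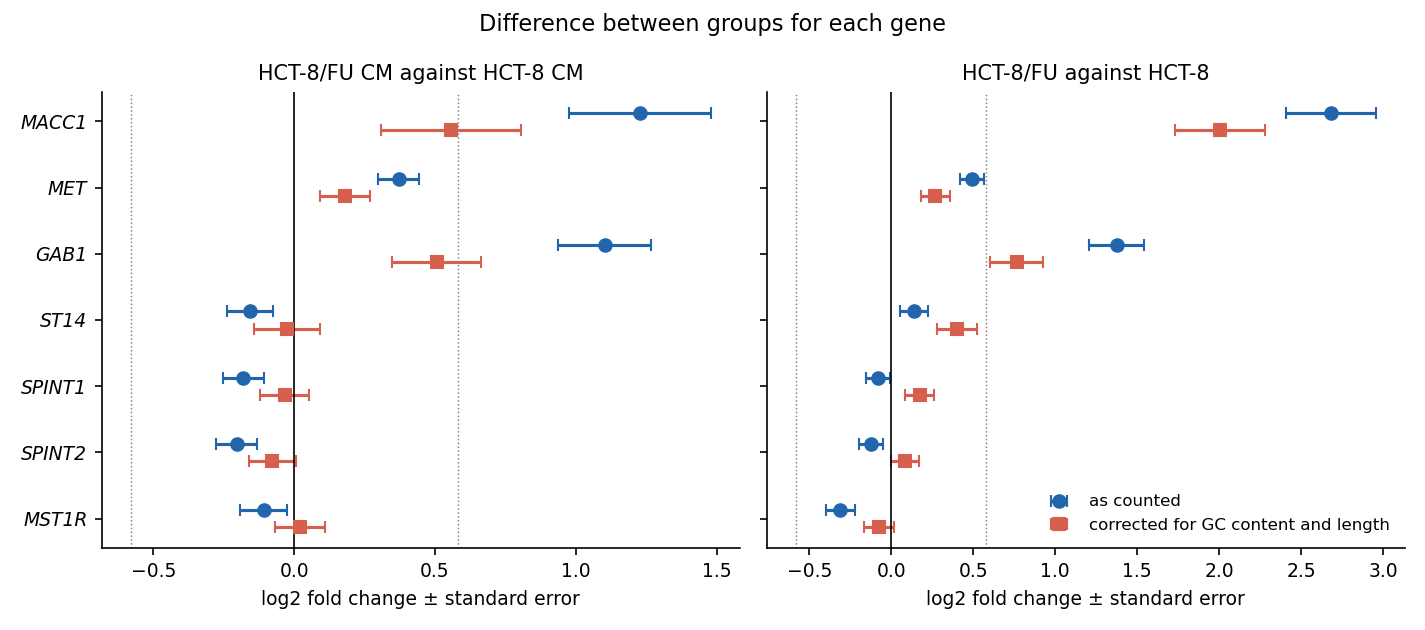
Log2 fold change ± standard error (horizontal axis) of each of the 7 genes in HCT-8/FU CM against HCT-8 CM and in HCT-8/FU against HCT-8, as counted (circles) and corrected for GC content and length (squares), with dotted lines at the fold threshold of 0.58. MACC1 moved from 1.23 to 0.56 in CM and from 2.68 to 2.00 in HCT-8/FU with the correction, and GAB1 from 1.10 to 0.51 and from 1.38 to 0.76.

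In HCT-8/FU against HCT-8, the groups did not overlap for 4 genes that were higher (MACC1, MET, GAB1 and ST14) and 1 that was lower (MST1R). Over all genes 32.7% were higher without overlap and 32.3% lower, and nothing is read from the count because the comparison chose the genes. In HCT-8 CM against HCT-8, 4 of the 7 were higher without overlap (MACC1, ST14, SPINT1 and SPINT2) and 0 lower, against 27.2% and 27.1% of all genes. That comparison shares the HCT-8 libraries with the one that chose the genes.

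The call on MACC1 and GAB1 in CM did not hang on a single library. Leaving out each of the 8 libraries in turn gave log2 fold changes of 1.11 to 1.47 for MACC1, 0.98 to 1.19 for GAB1 and 0.31 to 0.44 for MET in HCT-8/FU CM against HCT-8 CM, and each stayed under an FDR of 0.05 in the edgeR test. Of the 19 alternatives to the processing that were run, the ones that ended a call were the correction for GC content and length and the same correction with a replicate block.

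**Figure D3:**
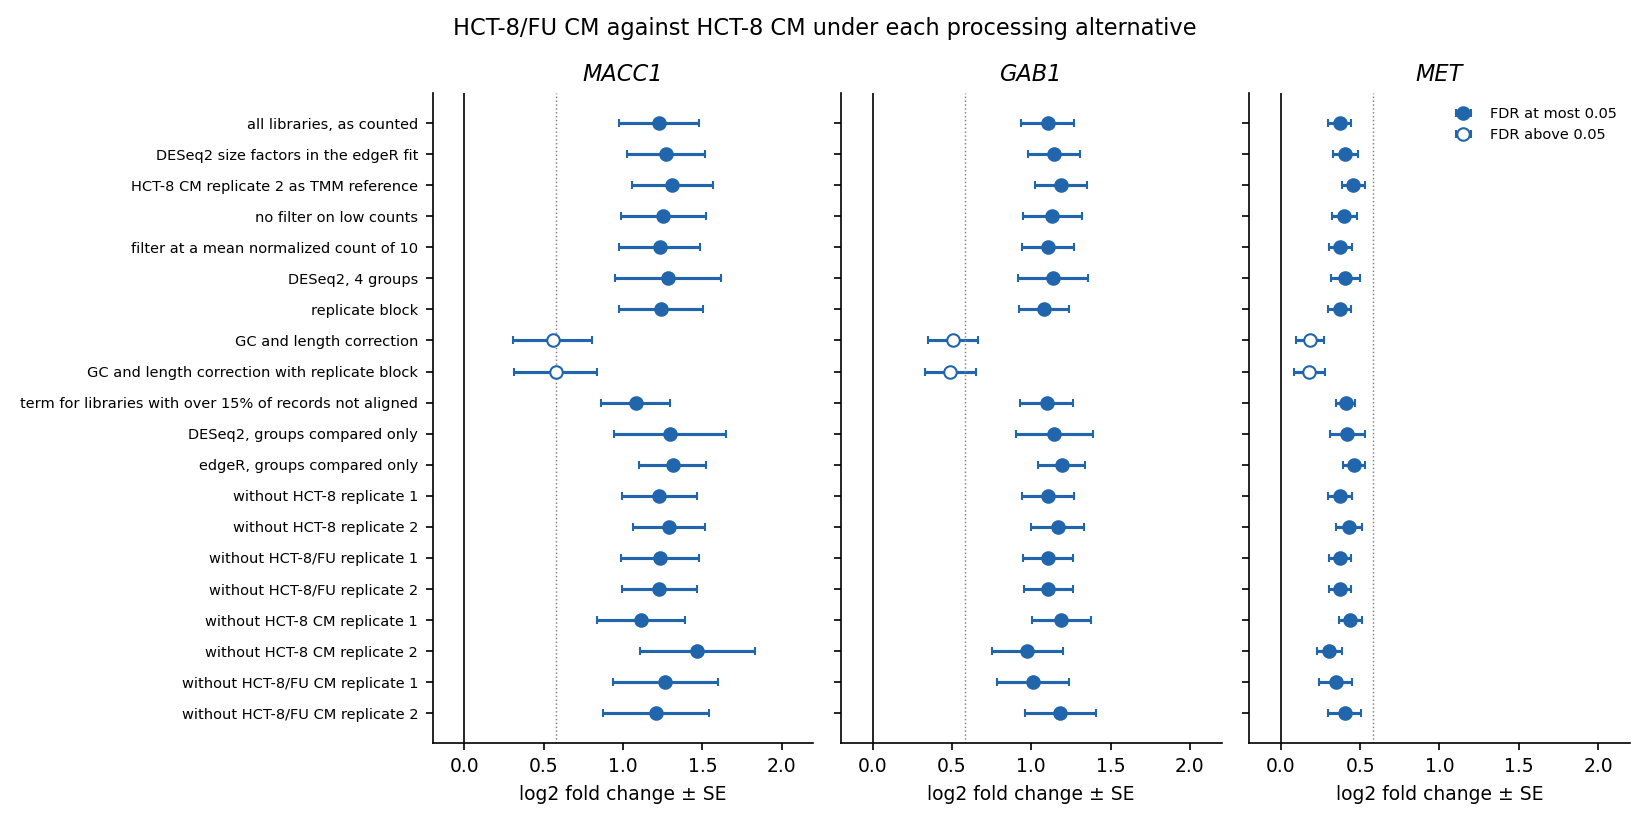
Log2 fold change ± standard error (horizontal axis) of MACC1, GAB1 and MET in HCT-8/FU CM against HCT-8 CM under each alternative to the processing (vertical axis), filled where the FDR was at most 0.05 and open where it was above, with a dotted line at 0.58. The open points are the correction for GC content and length, with and without a replicate block, where MACC1 was at 0.56 and 0.57.

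HGF transcripts were at the limit of detection, whereas those of MST1 were found in every library. HGF had 1 count in all 8 libraries together, and the limit that a count of 0 allows (3 counts) was 0.0887 to 0.501 CPM per library. MST1, the ligand of MST1R, was at 11.8 to 18.2 CPM, although the annotation holds near-identical copies of this gene between which reads may be split. Its log2 fold change was -0.06 ± 0.17 in HCT-8/FU and 0.01 ± 0.16 in HCT-8/FU CM (edgeR quasi-likelihood test, adjusted p = 0.825 and 0.972), and 0.19 and 0.14 with the correction. MACC1-AS1, the antisense partner of MACC1, had 0 counts in all 8 libraries, and 0% of the exonic bases of MACC1 lie opposite exons of another gene.

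The rest of the pathway was read from a list of 47 genes, of which 38 of the 40 that are not among the 7 could be tested. In HCT-8/FU CM against HCT-8 CM, 4 of these 38 were DE and higher and 0 were DE and lower by edgeR (9 lower at an unadjusted p under 0.05), with 7.97% and 1.28% of all genes DE in these directions, and DESeq2 likewise gave 4 and 0. Their median log2 fold change was -0.06, equal to that of all genes to 2 decimals. In HCT-8/FU against HCT-8, 6 were DE and higher and 3 lower, with 13.2% and 8.12% of all genes DE in these directions and a list median of -0.12 against 0.01 over all genes. Once GC content and length were corrected for, these counts were 1 and 0 in CM, where 2.65% and 2.16% of all genes were then DE, and 2 and 2 in HCT-8/FU, where 7.28% and 8.06% were.

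Among the receptors and co-receptors, CD44, a hyaluronan receptor whose long isoforms assist HGF and MET, was at 5.79 and 4.17 CPM in HCT-8, at 10.3 and 9.03 in HCT-8/FU, 10.4 and 7.01 in HCT-8 CM, and 8.98 and 7.82 in HCT-8/FU CM. It was higher in HCT-8/FU (log2 fold change 1.06 ± 0.24, edgeR adjusted p = 0.0026), and stayed a DE gene with the correction (0.70 ± 0.24, edgeR adjusted p = 0.0420). The groups in CM overlapped, with a log2 fold change of 0.0029 ± 0.22, or -0.33 ± 0.22 with the correction. None of the 7 other proteases listed for the processing of these precursors was DE by edgeR or DESeq2 in either comparison (1 had an unadjusted p under 0.05 in edgeR, in CM). HGFAC and TMPRSS13 had at most 15 and 12 counts in any library and standard errors of 0.77 to 1.28. PLAT and TMPRSS2 had standard errors of 0.43 to 0.51. For these genes the lack of a call says little.

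Of the 15 adaptors and effectors downstream of MET, GAB1 included, 4 were DE and higher in CM and 1 with the correction. The shares of all genes were 7.97% and 2.65%. In HCT-8/FU, where GAB1 was not tested, SOS1, PIK3CA, PIK3R1 and PTPN11 were DE and higher and SHC1 was DE and lower. PIK3R1 and SHC1 remained DE there with the correction. SOS1, which loads RAS with GTP, was at 29.8 and 30.1 CPM in HCT-8 and 70.5 and 67.9 in HCT-8/FU, and at 27.0 and 17.7 in HCT-8 CM and 49.8 and 50.9 in HCT-8/FU CM. Its log2 fold change was 1.21 ± 0.14 in HCT-8/FU and 1.23 ± 0.14 in HCT-8/FU CM (edgeR adjusted p = 6.3e-06 and 1.6e-05), and 0.50 and 0.45 with the correction. PIK3CA, the catalytic subunit of PI3 kinase, was higher by 1.10 ± 0.15 and 1.35 ± 0.16 (edgeR adjusted p = 4.4e-05 and 2.1e-05), and by 0.29 and 0.49 with the correction, although 19.8% of its exonic bases lie opposite exons of other genes. PIK3R1, the regulatory subunit, was at 7.02 and 5.35 CPM in HCT-8 CM and 13.6 and 15.8 in HCT-8/FU CM. Its log2 fold change was 1.38 ± 0.23 in HCT-8/FU (0.90 ± 0.23 with the correction) and 1.3006 ± 0.23 in HCT-8/FU CM (edgeR adjusted p = 0.00021 and 0.00089 as counted). It was the single gene of the list that remained DE in CM with the correction (0.80 ± 0.23, edgeR adjusted p = 0.0389).

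PTPN11, the phosphatase that GAB1 recruits, was higher in HCT-8/FU by 0.78 ± 0.07 (edgeR adjusted p = 9.0e-07) and by 0.46 ± 0.07 in HCT-8/FU CM (edgeR adjusted p = 0.00029), the latter below the fold threshold. With the correction its values were 0.50 ± 0.09, under the fold threshold too, and 0.18 ± 0.09 (edgeR adjusted p = 0.221 in CM), so that PTPN11 was a DE gene in neither comparison. SHC1, an adaptor that also docks on MET, was lower in HCT-8/FU by a log2 fold change of -0.94 ± 0.07 (edgeR adjusted p = 1.6e-07), and its difference between the groups in CM was -0.16 ± 0.07 (edgeR adjusted p = 0.120). With the correction these were -0.73, still a DE gene, and -0.02. SHC1 was also lower in HCT-8 CM against HCT-8, by -0.47 ± 0.07 (edgeR adjusted p = 0.00033), or -0.59 ± 0.09 with the correction.

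The sheddases that can release the MET ectodomain went in opposite directions in HCT-8/FU. ADAM10 was at 107 and 103 CPM in HCT-8 and 251 and 237 in HCT-8/FU, a log2 fold change of 1.22 ± 0.10 (edgeR adjusted p = 2.5e-07), whereas ADAM17 was at 131 and 133 CPM in HCT-8 and 72.9 and 70.7 in HCT-8/FU, a log2 fold change of -0.88 ± 0.08 (edgeR adjusted p = 5.5e-07). Between the groups in CM ADAM10 was higher by 0.99 ± 0.10 (edgeR adjusted p = 4.6e-06) and ADAM17 differed by 0.02 ± 0.08. The lower level of ADAM17 was not particular to HCT-8/FU, as it averaged 78.4 CPM in HCT-8 CM and 79.2 in HCT-8/FU CM. In HCT-8 CM against HCT-8 the log2 fold change of ADAM17 was -0.75 ± 0.08 (edgeR adjusted p = 1.2e-05), or -0.51 ± 0.08 with the correction. With the correction ADAM10 was at 0.52 in HCT-8/FU and 0.27 in CM, both under the fold threshold, and ADAM17 at -1.35 in HCT-8/FU. In CM the corrected value of ADAM17 was -0.47 ± 0.08, which passed the FDR (edgeR adjusted p = 0.00326) but not the fold threshold. SH3BP4, an endocytic adaptor whose domain structure MACC1 resembles, was lower in HCT-8/FU, with a log2 fold change of -0.70 ± 0.07 (edgeR adjusted p = 2.1e-06), and differed by -0.07 ± 0.07 between the groups in CM. With the correction its value in HCT-8/FU was -0.57 ± 0.09, which no longer reached the fold threshold. SH3BP4 was also lower in HCT-8 CM against HCT-8, by -0.36 ± 0.07 (edgeR adjusted p = 0.0021), or -0.42 ± 0.09 with the correction.

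**Figure D4:**
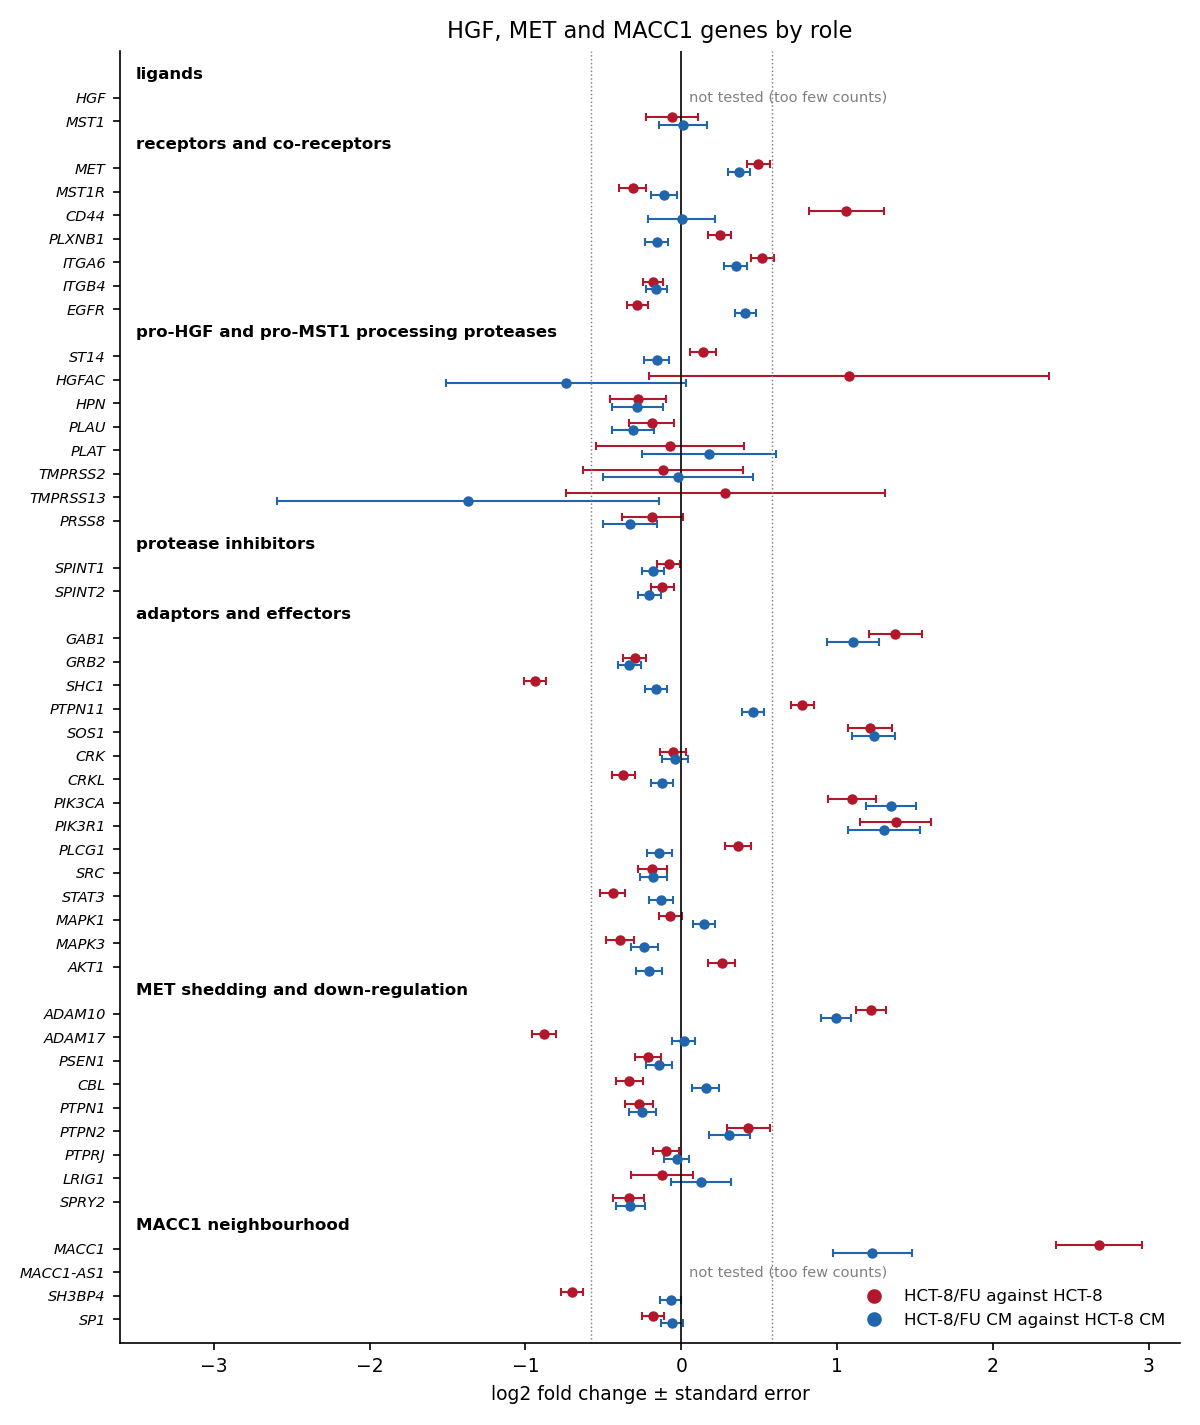
Log2 fold change ± standard error (horizontal axis) of the pathway genes, grouped by role (vertical axis), in HCT-8/FU against HCT-8 (red) and HCT-8/FU CM against HCT-8 CM (blue), with dotted lines at the fold threshold of 0.58. SOS1, PIK3CA, PIK3R1, ADAM10, GAB1 and MACC1 lie beyond the threshold on the right in both comparisons. SHC1, ADAM17 and SH3BP4 lie beyond it on the left in HCT-8/FU against HCT-8 but not in HCT-8/FU CM against HCT-8 CM. HCT-8 CM against HCT-8, where these genes were also lower, is not shown.

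The genes whose pattern was most like that of MACC1 over the 8 libraries, by Pearson correlation of log2 CPM among 11695 genes averaging 5 CPM or more, were RAD51AP1 (r = 0.991), MYBL1 (0.989), NAB1 (0.986), RMDN1 (0.985) and POLA1 (0.984). For MACC1 the correlation was 0.905 with GAB1 and 0.836 with MET, and -0.58 with MST1R. The genes most like MET were ATE1 (r = 0.997), MBNL3, SESTD1, ARHGAP11A and SPCS3 (each 0.996), and for MET the correlation was 0.978 with GAB1 and -0.84 with MST1R. The libraries fall into 4 groups that also differ in depth and in the GC trend, and the exons of the 10 like genes held 36.8% to 41.8% G and C, so the values are a description.

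**Figure D5:**
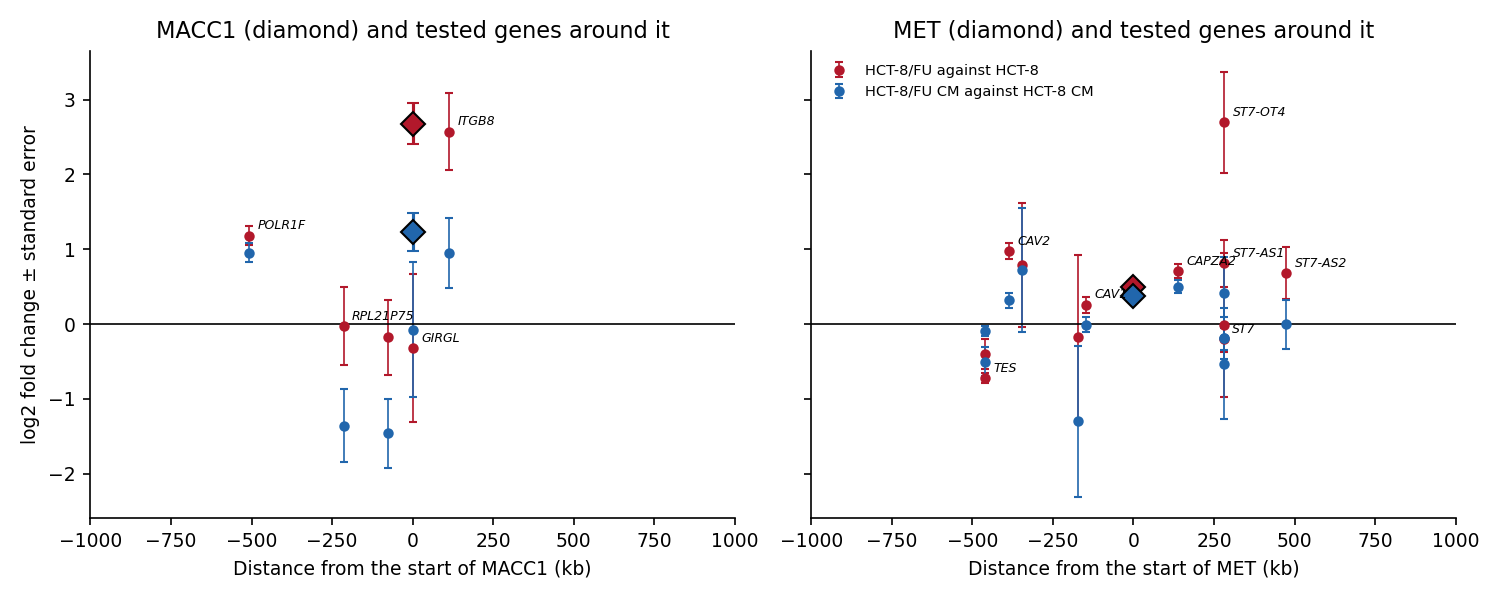
Log2 fold change ± standard error (vertical axis) of MACC1 and of MET (diamonds) and of the tested genes whose starts lie within 1000 kb, by the distance of their starts in kb (horizontal axis, increasing with the chromosome position), in HCT-8/FU against HCT-8 (red) and HCT-8/FU CM against HCT-8 CM (blue). Around MACC1, POLR1F and ITGB8 lie high in HCT-8/FU while the 3 other genes lie near 0 there, with wide standard errors. Around MET the values lie on both sides of 0 in both comparisons, with a median of 0.47 in HCT-8/FU.

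Around MACC1 and MET some tested genes moved with them and others did not, and a shared change of either stretch was not tested. Of the 5 tested genes around MACC1, 2 were DE and higher in HCT-8/FU, namely ITGB8 (2.57 ± 0.51, from 0.427 CPM on average in HCT-8 to 3.02 in HCT-8/FU) and POLR1F (1.18 ± 0.13), 0 were lower, and the median log2 fold change was -0.03. The others had wide standard errors, namely RPL21P75 (-0.03 ± 0.53), ENSG00000243004 (-0.18 ± 0.50) and GIRGL (-0.32 ± 0.99). For these the lack of a call, and the median they set, say little. In HCT-8/FU CM against HCT-8 CM, POLR1F was DE and higher (0.95 ± 0.13, edgeR adjusted p = 6.9e-05), and ENSG00000243004, whose exons share 1.38% of the exonic bases of MACC1 on the same strand, was DE and lower (-1.46 ± 0.46, edgeR adjusted p = 0.0381). Of the 12 tested genes around MET, 3 were DE and higher in HCT-8/FU (CAV2, CAPZA2 and ST7-OT4) and 1 lower (TES). The median log2 fold change of these 12 was 0.47 in HCT-8/FU, near the 0.49 of MET itself, and -0.05 in CM. In CM 0 of these 12 were DE by edgeR or DESeq2 (3 had an unadjusted p under 0.05 in edgeR). At the FDR alone 2 were higher, as MET was, and 0 lower, against 11.2% of all genes higher. They were CAPZA2 (0.50 ± 0.09, edgeR adjusted p = 0.00077) and CAV2 (0.32 ± 0.105, edgeR adjusted p = 0.0468). Their corrected values in CM were -0.10 and -0.01. With the correction POLR1F was at 0.58 in HCT-8/FU and 0.42 in CM, ITGB8 at 1.98 in HCT-8/FU and ENSG00000243004 at -1.77 in CM. CAV2 was then at 0.61, CAPZA2 at 0.09, ST7-OT4 at 2.57 and TES at -1.10 in HCT-8/FU. These neighbours were named after their values were seen. The median over the 976 tested genes of chromosome 7, which carries both MACC1 and MET, was -0.0021 in HCT-8/FU and -0.03 in CM.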

How the data were processed

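RNA-seq of 8 libraries was analysed, 6 of HCT-8 cells and 2 of HCT-8/FU. The authors aligned reads with HISAT2 to GRCh38 and counted them per gene with HTSeq 0.11.2 (Ensembl annotation); the deposited values are raw counts. A strand setting for the counting was not found, so the assignment of reads from exons that overlap another gene is uncertain. Exons on the opposite strand covered 12.2% of the exonic bases of SPINT2, 6.78% of those of MST1R and 11.7% of those of ADAM17. Lines naming no gene (59.2% to 70.3% of records) were left out of library sizes and tests. The authors' DESeq2 tables, holding fold changes and p-values, were not used.

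Groups came from the sample titles. Counts were fitted in R 4.3.3 with edgeR 4.0.16 (TMM, filterByExpr, 4 group means, no replicate block) and tested with glmQLFTest, and p-values were Benjamini-Hochberg adjusted over 20305 genes. The standard error is the size of the log2 fold change over the root of the F statistic. DE genes had an FDR up to 0.05 and a log2 fold change of 0.58 or more in size. The correction subtracts from each library a spline (5 degrees of freedom) on GC content and log exonic length, from GENCODE 44, in which 56105 of 64253 identifiers matched. Precision is set by counts per gene, with 5804124 to 34881349 gene counts per library. On simulated data for HCT-8/FU CM against HCT-8 CM, edgeR recovered 57.7% of genes changed by a log2 of 1 and 82.0% of those changed by 2, with 9 false calls among 19816 genes. An added GC trend gave 5774 false calls among 19825 genes without the correction and 8 among 19401 with it. That trend was linear, was added to a single group and was not scaled to the trend in these data. A smooth trend is what the correction removes, so these counts do not tell which calls in the data were false.

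The members, lists and alternatives were chosen with earlier results of these data known. Genes named are the 7 members, every pathway gene DE in either comparison, HGF, MST1, MACC1-AS1, and the 5 genes most correlated with MACC1 and with MET (log2 CPM, prior count 2). Alternatives were DESeq2 1.42.0 (4 groups or the groups compared), its size factors in edgeR, another TMM reference, other filters (none, or a mean normalized count of 10), a replicate block, the correction with and without it, a term for the libraries in which over 15% of records did not align, edgeR on the groups compared, the FDR alone, and leaving out each library.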

Additional observations from a re-analysis of the deposited data

Results flagged for a closer look

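ST14 was the one gene of the 7 whose libraries moved without overlap in opposite directions in the 2 comparisons: its log2 fold change was 0.14 in HCT-8/FU against HCT-8 and -0.16 in HCT-8/FU CM against HCT-8 CM. The difference between these values was not tested, the value in CM did not pass the test (edgeR quasi-likelihood test, adjusted p = 0.207), and with the correction for GC content and length the values were 0.40 and -0.03.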

How the results depend on the processing

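In HCT-8/FU CM against HCT-8 CM, 1878 genes were DE (1619 higher, 259 lower), 954 (526 higher, 428 lower) with the correction for GC content and length, 897 with the correction and the replicate block, and 4005 at the FDR alone. The lower count was 648 without replicate 2 of HCT-8 CM, 91 without replicate 1 of HCT-8 CM and 126 with another TMM reference. In HCT-8/FU against HCT-8, 4325 genes were DE (2677 higher, 1648 lower), 3166 higher and 1192 lower with that reference, 1446 higher and 1600 lower with the correction, and 7442 at the FDR alone. The whole pathway list, with the 7 genes in it, gave 6 DE genes in CM and 11 in HCT-8/FU. These counts were 1 and 6 with the correction, again 1 and 6 with the correction and the block, and 12 and 27 at the FDR alone. The counts in HCT-8/FU include genes of the 7, which that comparison chose, so these counts are a description. Without the 7 genes, HCT-8/FU gave 6 higher and 3 lower, 2 and 2 with the correction, and 11 and 12 at the FDR alone. In CM the correction gave log2 fold changes of 0.56 for MACC1, 0.18 for MET and 0.51 for GAB1, and 0.57, 0.18 and 0.49 with the replicate block, where the adjusted p was 0.222, 0.297 and 0.0776 (edgeR). The adjusted p of MACC1 under the other alternatives ranged from 5.8e-05 (no filter on low counts) to 0.0256 (edgeR). MST1R turned to 0.021 with the correction, to 0.021 with the correction and the block, and to 0.026 without replicate 2 of HCT-8 CM. SPINT1 (-0.21) and SPINT2 (-0.24) passed the FDR with a term for libraries with many records not aligned. The cause of these changes was not tested.

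Leaving out single libraries gave log2 fold changes in CM of 1.11 to 1.47 for MACC1, 0.31 to 0.44 for MET and 0.98 to 1.19 for GAB1. The values were -0.26 to -0.050 for ST14, -0.21 to -0.12 for SPINT1, -0.22 to -0.15 for SPINT2 and -0.21 to 0.026 for MST1R. Where an arm was left with 1 library, its spread was assumed to be that of the other groups. SPINT2 passed the FDR without either replicate of HCT-8/FU (-0.20 in each case), and ST14 without replicate 2 of HCT-8 CM (-0.26). The correlation of deviations of libraries with the same replicate number was -0.0862 in HCT-8/FU against HCT-8 and -0.0279 in CM. With 2 libraries per group each comparison gives a single value, and depth and alignment also differ between replicates. These values therefore cannot decide whether replicate numbers pair the libraries. The replicate block gave 1816 DE genes in CM and 4180 in HCT-8/FU and ended no call on the 7 genes in CM without the correction. Low counts limit the precision of MACC1, with 8 in the shallower library of HCT-8.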
